A study of Homo sapiens with 9 samples.

Results

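The genes described here are olfactory receptor genes of families 4, 5, 8, 51, 52 and 56, measured in DLD1 cells, a human colorectal adenocarcinoma line. They were chosen by gene name alone, as every probe whose name starts with OR, one of these family numbers, a subfamily letter and a member number. This gave 320 probes of 171 genes, among 50238 probes of 31033 gene names on the array. The families had 49 genes (family 4), 45 (family 5), 25 (family 8), 22 (family 51), 24 (family 52) and 6 (family 56). All 171 names were matched to a reference table (GRCh38.p14), which places 135 genes on Chr.11, 13 on Chr.14 and the other 23 elsewhere. Of the 171 genes, 164 are listed as protein coding and 7 as pseudogenes.

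Olfactory receptors are G protein-coupled receptors that bind odorants in the nose. A sensory neuron of the nose expresses a single receptor gene, and the remaining receptor genes are kept silent in heterochromatin. Receptor genes lie in clusters that are silent in other cell types and are often found there at the nuclear lamina, the meshwork of A-type and B-type lamins under the nuclear envelope. The comparisons below ask whether their transcripts change when a lamin is depleted.

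Cultures of DLD1 cells were left untreated (3 controls) or were transfected for 48 h with 100 nM siRNA against Lamin A/C (3 cultures, Lamin A/C Kd) or Lamin B2 (3 cultures, Lamin B2 Kd). Each culture was hybridized to 1 single-color Agilent array, and no array came from cells given a control siRNA, so that transfection and depletion cannot be told apart. LMNA, which encodes Lamin A/C, fell in Lamin A/C Kd by 3.83 on the log2 scale (limma, adjusted p = 0.000225), and LMNB2 fell in Lamin B2 Kd by 2.32 (limma, adjusted p = 0.000523). In a bulk culture, a few cells with much of a transcript and many cells with little of it cannot be told apart.

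Values are log2 signals minus the 50th percentile of the array, so that a value of 0 is the middle of the array. A probe counts as detected where the scanner software marked it as well above background. The lowest detected signal of an array lay between −2.24 and −1.72. Between 65.6 and 74.2% of all probes were detected on an array. One array stood apart, as Lamin B2 Kd replicate 3 was on a slide of its own while the other 8 shared a slide, and its file shows no multiplicative detrending, which the other files do. Some results that rest on it are given with and without it. Others are given with it only, such as the count of Lamin B2 Kd genes by unadjusted p alone. A result with no second value may thus also depend on this array. Unless stated, p values and intervals of both knockdowns come from a fit that includes it. With 1 array on that slide, slide and sample cannot be told apart.

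Probe identity matters for these genes, because a receptor gene has 1 (46 genes), 2 (101 genes) or 3 probes (24 genes) of 60 bases, and the probes of a gene often differed in detection. The probes the results below turn on are shown first. The 3 probes of OR52N5 are shown because 1 of them was detected on every array and the others on 1 array each.
OR52N5 probe GT_HS_44k_0185: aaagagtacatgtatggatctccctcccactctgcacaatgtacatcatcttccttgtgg
OR52N5 probe GT_HS_44k_0186: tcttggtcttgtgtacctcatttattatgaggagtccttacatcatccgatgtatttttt
OR52N5 probe GT_HS_44k_0187: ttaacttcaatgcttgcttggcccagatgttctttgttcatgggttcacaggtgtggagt

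Probes of OR5T2 are shown because its largest change in Lamin A/C Kd was seen with the second of them. The files tie the first to a RefSeq transcript and the second to a cDNA record.
OR5T2 probe GT_44k_23_P87104: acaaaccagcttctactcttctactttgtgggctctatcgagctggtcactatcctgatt
OR5T2 probe GT_44k_24_P307785: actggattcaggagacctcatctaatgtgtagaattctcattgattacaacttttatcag

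The next 6 probes, of 5 genes, are those that passed the criterion for a change in Lamin B2 Kd.
OR4K13 probe GT_HS_44k_0449: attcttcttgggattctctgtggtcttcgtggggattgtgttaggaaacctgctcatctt
OR4K13 probe GT_HS_44k_0450: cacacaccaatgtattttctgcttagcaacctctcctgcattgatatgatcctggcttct
OR51D1 probe GT_44k_23_P24898: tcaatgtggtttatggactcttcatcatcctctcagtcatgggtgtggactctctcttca
OR52K1 probe GT_HS_44k_0521: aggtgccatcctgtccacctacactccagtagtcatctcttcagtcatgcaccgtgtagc
OR5D18 probe GT_HS_44k_0194: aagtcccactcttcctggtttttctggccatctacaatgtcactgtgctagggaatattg
OR5R1 probe GT_HS_44k_0479: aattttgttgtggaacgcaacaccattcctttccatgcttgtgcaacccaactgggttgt

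Some receptor genes are near copies of each other, and their probes can then share a target. The probes of OR51A2 and OR51A4 show this most plainly, with capitals marking the 58 bases that they share.
OR51A2 probe GT_HS_44k_0485: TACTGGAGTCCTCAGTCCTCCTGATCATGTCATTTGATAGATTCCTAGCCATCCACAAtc
OR51A4 probe GT_HS_44k_0643: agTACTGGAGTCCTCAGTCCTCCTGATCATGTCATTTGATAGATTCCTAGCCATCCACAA

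Signals of such pairs cannot be taken as separate measurements of the genes. Stretches of at least 30 bases with at least 90% identity also joined probes of OR4M1 and OR4M2, OR5M1 and OR5M10, OR8B2 and OR8B3, OR8H2 and OR8H3, and several OR4F genes. The probes printed above had values in controls of −1.34, −1.16 and −0.58 for OR51A2 and of −1.04, −1.13 and −0.92 for OR51A4. Whether they followed each other over the arrays was not tested.

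Most receptor probes were at or near background in DLD1 cells. Of the 320 probes, 91 (28.4%) were detected on all 9 arrays, 142 on some arrays and 87 (27.2%) on no array, against 60.8% on all arrays and 18.1% on no array over all probes. The median intensity of the receptor probes on an array was between 12.8 and 27.6, whereas the median intensity over all spots was between 63.0 and 82.6. At least 1 probe was detected on all arrays for 76 of the 171 genes (44.4%). On every array, 27 probes of 24 genes lay above the middle of the array (8.44% of the receptor probes, against 44.7% of all probes).

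**Figure D1:**
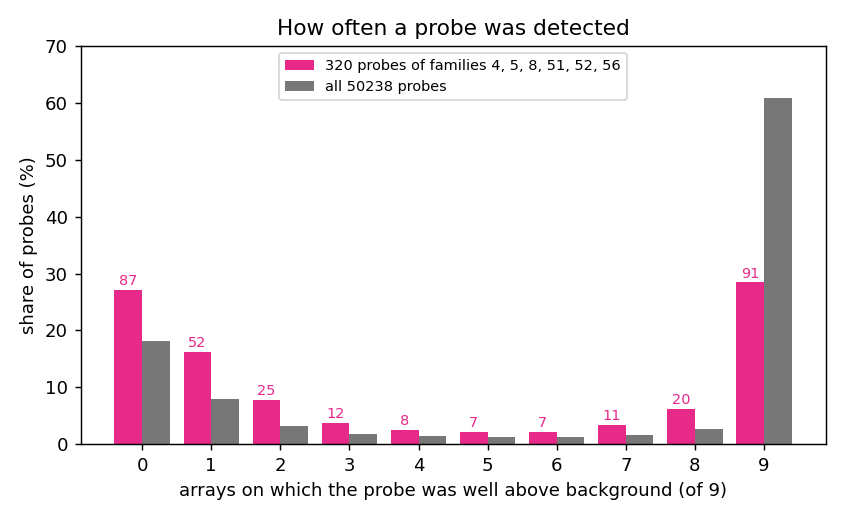
Share of probes (percent, y axis) by the number of arrays, of 9, on which they were well above background (x axis), for the 320 receptor probes (pink, with their number above each bar) and for all probes (grey). Receptor probes were detected on all 9 arrays in 91 cases and on no array in 87, and 52 were detected on a single array.

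Each family held detected and undetected probes. The probes detected on all arrays were 23 of 91 in family 4, 21 of 85 in family 5, 12 of 45 in family 8, 12 of 39 in family 51, 19 of 47 in family 52 and 4 of 13 in family 56. By chromosome, they were 69 of 252 probes on Chr.11, 8 of 25 on Chr.14 and 14 of 43 on other chromosomes. Of the 125 genes with several probes, 11 had all of them detected on all arrays, 45 had some and 69 had none. In 14 genes, a probe was detected on all arrays and another on no array. Across the 320 receptor probes, the share of G and C bases and the mean signal had a Pearson's r of 0.42 and a Spearman's rho of 0.42, given as a description, since these probes share the arrays and their base composition is part of the measurement. The median GC content was 45% in receptor probes detected on all arrays and 40% in those detected on none.

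Among the receptor probes with the highest signals, some were steady over the arrays and others were far off on 1 array. Probe GT_HS_44k_0185 of OR52N5, a Chr.11 receptor, had values of 4.06, 4.03 and 4.09 in controls, 4.12, 4.24 and 4.04 in Lamin A/C Kd, and 4.31, 3.94 and 4.44 in Lamin B2 Kd. The groups overlapped, and the difference from control was 0.07 in Lamin A/C Kd (95% interval −0.25 to 0.39) and 0.17 in Lamin B2 Kd (−0.15 to 0.49). The other OR52N5 probes, printed above with it, were detected only in control replicate 2 (GT_HS_44k_0186) and only in Lamin B2 Kd replicate 3 (GT_HS_44k_0187), so the signal of this gene rests on 1 of 3 probes.

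The probe of OR4D2, a receptor on Chr.17, was at 2.97, 1.57 and 2.95 in controls, 3.05, 3.08 and 3.01 in Lamin A/C Kd, and 3.0, 2.97 and 3.43 in Lamin B2 Kd. Control replicate 2 was the low value, and the remaining 8 lay between 2.95 and 3.43. Probe GT_HS_44k_0761 of OR8G2, listed as a pseudogene in the reference, ranged from 2.37 to 2.58 in controls, 2.60 to 2.74 in Lamin A/C Kd and 2.55 to 3.34 in Lamin B2 Kd. Its difference from control was 0.18 in Lamin A/C Kd (95% interval −0.26 to 0.63) and 0.37 in Lamin B2 Kd (−0.08 to 0.82). By the same rule of highest signals, probes of OR5R1, OR4C45, OR52N1, OR5E1P, OR51L1, OR52N2, OR52D1, OR8S1, OR8B8 and OR51A2 were also among the 15 chosen, and none of the 15 changed at least 2-fold with a p under 0.05 in either knockdown.

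Receptors with known expression outside the nose gave low signals. OR51E2, known from prostate and colon, was detected on 8 of 9 arrays by probe GT_44k_23_P139327, with values of −1.53, −1.46 and −2.10 in controls, −1.58, −1.53 and −1.37 in Lamin A/C Kd, and −1.38, −1.25 and −0.49 in Lamin B2 Kd. Its difference in Lamin B2 Kd was 0.66 (limma, adjusted p = 0.161), and 0.38 without replicate 3. The other OR51E2 probe was detected on no array. OR51B5 was detected on all 9 arrays, between −0.77 and −0.68 in controls, −0.55 and −0.50 in Lamin A/C Kd, and −0.55 and 0.45 in Lamin B2 Kd. All 6 knockdown arrays were above all controls, with differences of 0.21 (limma, adjusted p = 0.678) and 0.52 (adjusted p = 0.226; 0.19 without Lamin B2 Kd replicate 3). OR51E1 was detected on 2 arrays, both of Lamin B2 Kd, and OR51B4, reported from colon cancer cells, on none.

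In Lamin A/C Kd, no receptor gene passed the criterion of a 2-fold change with an unadjusted p under 0.05, out of 98 genes (123 probes) tested, whereas 2.94% of all genes tested passed it (1.21% higher and 1.73% lower). A probe entered the test if either group had it detected on all of its arrays. By limma's unadjusted p alone, 4 receptor genes passed, all higher in Lamin A/C Kd, against 28.1% of all genes. The differences of the tested receptor probes lay between −0.91 and 0.72. For 75 of the 123 probes, the 95% interval of the difference lay inside 2-fold in both directions, and for the other 48 it reached a 2-fold change, so that a change of that size remained possible for those probes. The fit shared a spread over the 3 groups, so these p values and intervals include the spread between Lamin B2 Kd arrays. The median SD between those arrays was 0.65 over receptor probes and 0.32 over all probes. Its part in these counts and intervals was not tested.

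The 4 genes were OR5T2, OR52D1, OR51G2 and OR8B8, all on Chr.11. OR5T2 probe GT_44k_24_P307785 was at 2.70, 2.74 and 2.76 in controls, 3.22, 3.19 and 3.52 in Lamin A/C Kd, and 2.77, 2.85 and 2.5 in Lamin B2 Kd. All Lamin A/C Kd arrays were above the other 6. The difference, measured by 1 of the 3 probes of the gene, of 0.57 (standard error 0.14; limma, adjusted p = 0.0333) was below 2-fold, and it kept the adjusted p in the comparison with Lamin B2 Kd as well (0.60, adjusted p = 0.0186). The probe of the same gene tied to the RefSeq transcript was detected on 3 arrays and was not tested.

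OR52D1 probe GT_HS_44k_0513 was at 0.63, 0.95 and 0.61 in controls, 1.23, 1.18 and 1.17 in Lamin A/C Kd, and 1.05, 1.09 and 1.29 in Lamin B2 Kd. Every knockdown array was above every control, with differences of 0.46 in Lamin A/C Kd (limma, adjusted p = 0.0575) and 0.41 in Lamin B2 Kd (adjusted p = 0.107). OR8B8 showed the same order, from 0.62 to 0.81 in controls, 0.94 to 1.28 in Lamin A/C Kd and 0.89 to 1.24 in Lamin B2 Kd, with a difference of 0.35 in each (adjusted p = 0.162 and 0.180). For OR51G2, probe GT_HS_44k_0590 had a difference of 0.55 (limma, adjusted p = 0.107), while that of its other probe was −0.11. The knockdowns share the controls, so their differences are given side by side only.

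Over all 320 receptor probes, with no filter on detection, the median difference in Lamin A/C Kd was 0.14, against 0.01 over all probes of the array. It was 0.06 over other olfactory receptors, 0.10 over keratin-associated proteins and 0.16 over bitter taste receptors. The difference was above 0 for 225 receptor probes and below 0 for 95. All 3 Lamin A/C Kd arrays were above all controls for 66 of the 320 probes (20.6%, against 20.5% of all probes), and below them for 12 (3.75%, against 17.9%). The 66 included 39 of the 87 receptor probes detected on no array (44.8%, against 46.9% of other such probes). They also included 16 of the 91 detected on all arrays (17.6%, against 15.5%). The 87 receptor probes detected on no array had a median difference of 0.22, and the 8989 other probes of the array detected on no array had one of 0.21. The 91 receptor probes detected on all arrays had a median difference of 0.11. The lowest detected signal, on this scale, lay between −1.98 and −1.72 in Lamin A/C Kd and between −2.14 and −2.0 in controls, and the part of this in the receptor values was not tested.

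**Figure D2:**
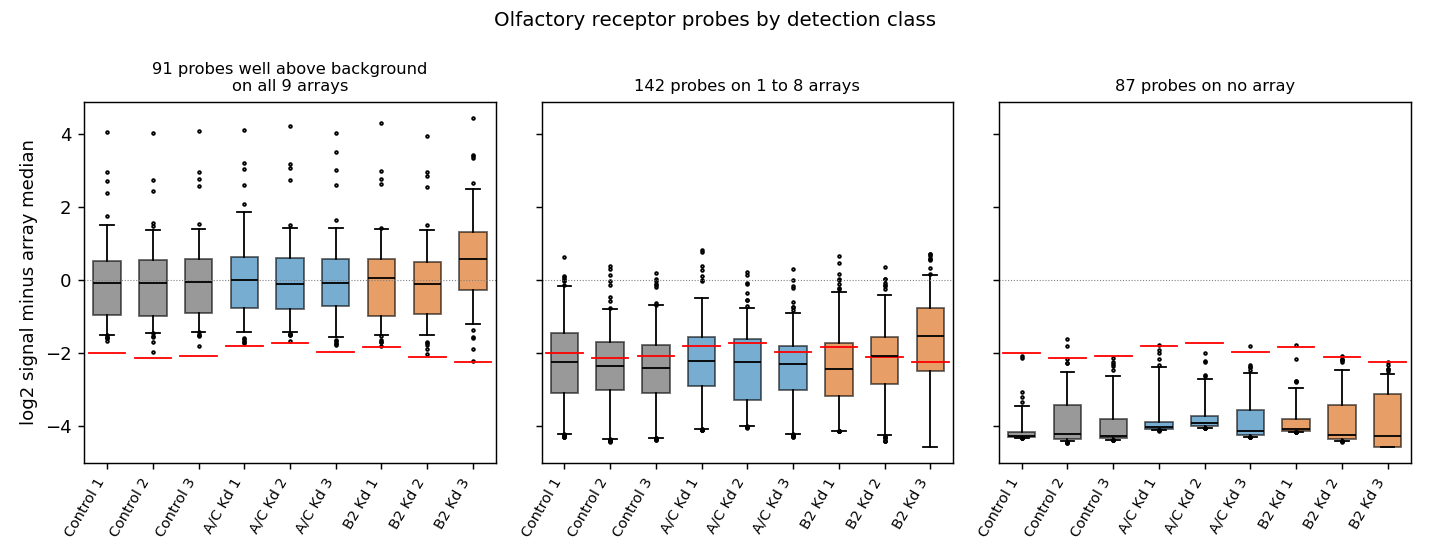
Log2 signal minus the array median (y axis) of the receptor probes on each of the 9 arrays (x axis; controls grey, Lamin A/C Kd blue, Lamin B2 Kd orange), in panels by detection class. Boxes span the quartiles with the median as a black line, whiskers reach the 5th and 95th percentiles, points are probes beyond them, and red lines mark the lowest detected signal of each array. In the left panel, the median of Lamin B2 Kd replicate 3 is 0.58, while those of the other arrays lie between −0.12 and 0.05.

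The number of receptor probes detected on an array did not rise in Lamin A/C Kd. It was 149, 142 and 142 in controls (44.4 to 46.6% of 320), and 134, 128 and 134 in Lamin A/C Kd (40 to 41.9%). All Lamin A/C Kd arrays were thus below all controls. In Lamin B2 Kd it was 129, 155 and 190 (40.3, 48.4 and 59.4%), so that replicate 1 was below the controls and replicate 3 far above them. Over all probes, the shares were 68.0 to 68.8% in controls, 65.6 to 68.1% in Lamin A/C Kd, and 66.7, 74.2 and 72.8% in Lamin B2 Kd. Replicate 3 thus had fewer detected probes in all than replicate 2 but more detected receptor probes. The 350 probes of other olfactory receptors moved in the same way, with 234 detected in replicate 3 and between 162 and 192 on the other arrays. So did the keratin-associated proteins, which are hair proteins (79 of 108 against 60 to 72), and the bitter taste receptors TAS2R (16 of 27 against 10 to 14).

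**Figure D3:**
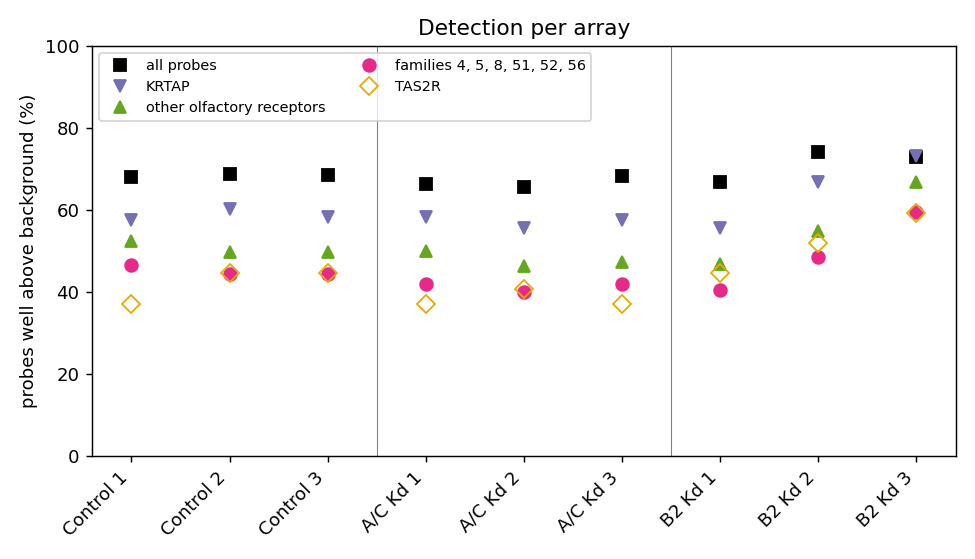
Share of probes well above background (percent, y axis) on each array (x axis) for the receptor families described here (pink), other olfactory receptors, keratin-associated proteins (KRTAP), bitter taste receptors (TAS2R) and all probes. Receptor families lie between 40 and 48.4% on all arrays but Lamin B2 Kd replicate 3, where they reach 59.4%.

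In Lamin B2 Kd, 5 receptor genes of 105 tested passed the criterion with the 9 arrays, all of them higher, against 2.72% of all genes in either direction (1.17% higher and 1.55% lower). None passed with the adjusted p, and at limma's unadjusted p alone 9 receptor genes did, against 28.9% of all genes. On all 6 probes of the 5 genes, replicate 3 was the highest of the 9 arrays. Without replicate 3, OR4K13 was the only one of the 5 that still passed the criterion, and OR52N4, which was lower, then passed as well (2 genes in all, against 1.97% of all genes). The called probes of OR4K13, OR51D1 and OR5D18 were tested only through their detection in Lamin B2 Kd, so their direction is not independent of that filter. OR52N4 probe GT_HS_44k_0528 was tested only through its detection in controls, so a lower direction is not independent of the filter either. With detection on all 9 arrays required, 2 of 76 receptor genes were called, both higher, against 364 of 20293 genes. The split of directions changed with the array left out, as given at the end.

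OR4K13, a receptor on Chr.14, was the 1 gene called by both of its probes. Probe GT_HS_44k_0449 was at −1.43, −2.52 and −3.23 in controls, −2.34, −1.33 and −1.95 in Lamin A/C Kd, and −1.04, −1.39 and 0.58 in Lamin B2 Kd. Every Lamin B2 Kd array was above every control, though replicates 1 and 2 only just. The difference was 1.78 (95% interval 0.48 to 3.07; limma, adjusted p = 0.114), and 1.18 without replicate 3. Probe GT_HS_44k_0450 was at −2.51, −2.14 and −1.74 in controls and −0.82, −1.73 and 0.04 in Lamin B2 Kd. Its difference was 1.29 (adjusted p = 0.183), and 0.85 without replicate 3. Both probes were detected on 1 of 3 control arrays and on all 3 Lamin B2 Kd arrays.

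OR51D1, of the Chr.11 cluster, has a single probe, which was at −1.45, −2.55 and −1.07 in controls, −2.65, −0.84 and −1.19 in Lamin A/C Kd, and −0.33, −0.84 and 0.15 in Lamin B2 Kd. All Lamin B2 Kd arrays were above the controls, and the difference was 1.36 (95% interval 0.19 to 2.52; adjusted p = 0.162). Without replicate 3 it was 1.11, with an unadjusted limma p of 0.0958. This was thus a change above 2-fold whose spread between arrays was too large to pass.

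OR52K1 probe GT_HS_44k_0521 was at 0.01, −0.53 and −0.52 in controls, between −0.11 and 0.00 in Lamin A/C Kd, and at 0.46, 0.27 and 1.74 in Lamin B2 Kd. The difference was 1.17 (95% interval 0.40 to 1.94; limma, adjusted p = 0.0907). Without replicate 3 it was 0.71 with an unadjusted limma p of 0.00337, under the 2-fold limit but larger than the spread of those arrays. Its other probe was detected only in Lamin A/C Kd replicate 1, on a spot that was marked as an outlier and left out, and was not well above background on the remaining 8 arrays.

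OR5R1, named OR8U3 in the reference, and OR5D18 rose mainly through replicate 3. OR5R1 probe GT_HS_44k_0479 was at −0.60, −0.59 and −0.65 in controls, and at 0.16, −0.15 and 2.65 in Lamin B2 Kd, a difference of 1.5 with all arrays (adjusted p = 0.176) and of 0.62 without replicate 3. Its other probe was at 1.5, 1.49 and 1.41 in controls and 1.13, 1.32 and 2.11 in Lamin B2 Kd, so that replicates 1 and 2 were below the controls there. OR5D18 probe GT_HS_44k_0194 was at −1.64, −2.28 and −1.78 in controls, and at −1.42, −1.30 and 0.70 in Lamin B2 Kd, a difference of 1.22 (adjusted p = 0.176) that was 0.54 without replicate 3. The other OR5D18 probes were detected on 1 array and on none.

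**Figure D4:**
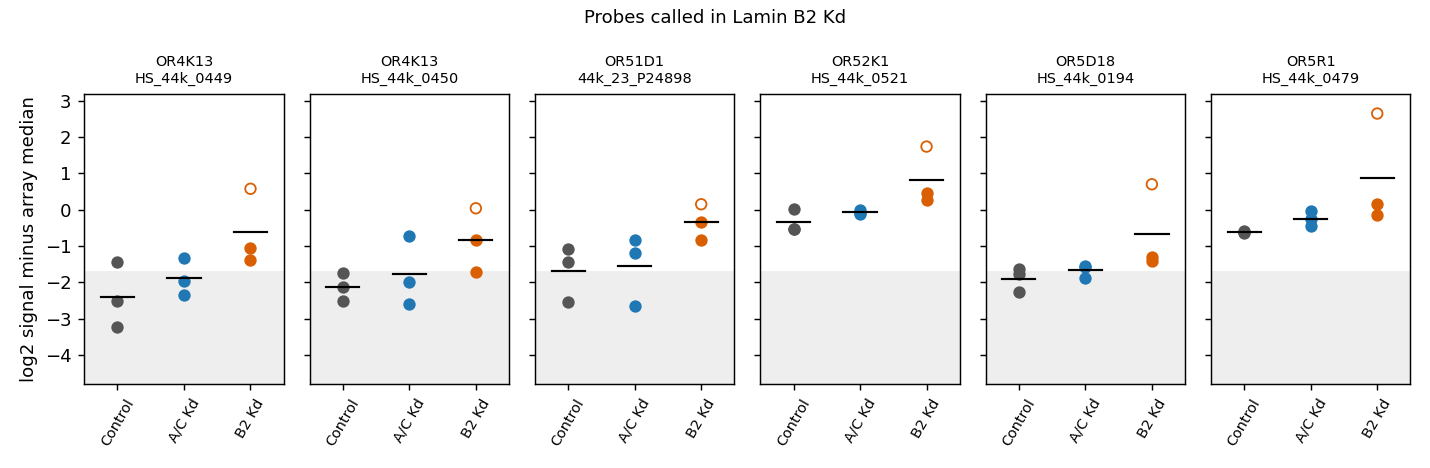
Log2 signal minus the array median (y axis) of the 6 probes called in Lamin B2 Kd, by group (x axis), with a point per array and the mean as a line. Open circles are Lamin B2 Kd replicate 3, and the grey band lies below −1.72, the highest of the 9 detection limits; the open circle is the highest point in all 6 panels.

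The same array held the lowest values too. Replicate 3 was the highest of the 9 arrays for 175 of the 320 receptor probes (54.7%) and the lowest for 89 (27.8%), whereas over all probes it was the highest for 17.0% and the lowest for 45.1%. Against the mean of Lamin B2 Kd replicates 1 and 2, the receptor probes on it were higher by a median of 0.67, other olfactory receptors by 0.62, keratin-associated proteins by 0.53 and TAS2R genes by 0.39, while all probes had a median of −0.27. The receptor probes detected on all arrays were higher there by a median of 0.76, and those detected on none had a median of −0.29. OR8S1, a receptor on Chr.12, was at 3.41 on it and between 0.18 and 1.2 elsewhere, and OR5E1P, a pseudogene, was at −0.51 on it and between 1.13 and 1.41 elsewhere. Of the 3 OR52N1 probes, 1 had its highest value on it (0.66) and the others their lowest (−2.81 and 0.36). Pearson's r between this shift and the GC content of the probe was 0.02 over receptor probes, a description only. The median SD between Lamin B2 Kd arrays was 0.65 over receptor probes and 0.32 over all probes, while between controls it was 0.25 and 0.13.

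Over all 320 probes, the median difference in Lamin B2 Kd was 0.24, against −0.04 over all probes, and without replicate 3 it was 0.07, against 0.01. Other families had like medians, of 0.23 over other olfactory receptors, 0.25 over keratin-associated proteins and 0.26 over TAS2R genes. Without replicate 3 these were 0.02, 0.10 and 0.07. With all arrays, 215 receptor probes were above 0 and 105 below. All Lamin B2 Kd arrays were above all controls for 35 receptor probes (10.9%, against 6.8% of all probes) and below them for 1 (0.312%, against 17.8%). Without replicate 3, a comparison added after the values were seen, these were 49 (15.3%, against 15.1%) and 18 (5.62%, against 20%). The receptor probes thus stood apart upward at a share near that of all probes in Lamin A/C Kd, and in the other knockdown once replicate 3 was left out. Downward, their share was below that of all probes in each comparison, and so were those of some other sets. Over other olfactory receptors it was 4.57% in Lamin A/C Kd, 2.86% in Lamin B2 Kd and 11.1% without replicate 3. Over other probes detected on no array it was 1.41, 0.823 and 1.39%. Over other probes detected on all arrays it was higher, at 26.7, 27.8 and 30.2%. Receptor probes detected on all arrays had shares of 4.4, 0 and 7.69%.

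**Figure D5:**
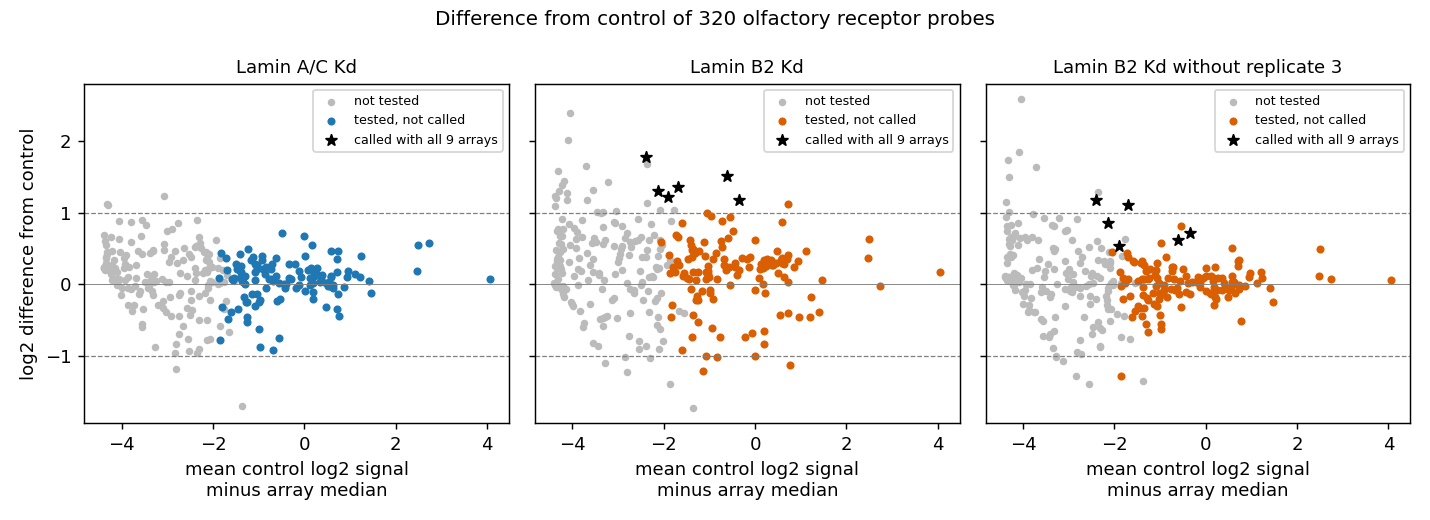
Log2 difference from control (y axis) against the mean control signal (x axis) of the 320 receptor probes in Lamin A/C Kd, Lamin B2 Kd, and Lamin B2 Kd without replicate 3. Grey points were not tested, coloured points were tested and not called, stars mark the 6 probes called with all 9 arrays, and dashed lines mark 2-fold; 2 of the 6 stars stay above the line without replicate 3.

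The largest differences without a filter were mostly those of probes at background. An exception was OR4K13 probe GT_HS_44k_0449, described above, which was also among the 3 largest rises in Lamin B2 Kd. In Lamin B2 Kd, OR4S2 probe GT_HS_44k_0280 was at −4.17, −4.17 and −3.80 in controls and −0.25, −2.69 and −2.03 in the knockdown, where it was detected on 2 of 3 arrays. It was also detected in Lamin A/C Kd replicate 1 (−1.57), and its other probes differed from control by −0.12 and 0.48. OR4K5 probe GT_HS_44k_0666 was at −4.23, −3.73 and −4.33 in controls and −2.27, −2.23 and −1.77 in Lamin B2 Kd, above all other arrays but detected on 1 array only. Without replicate 3, the other OR4K5 probe had a difference of 0.10. In Lamin A/C Kd, the largest rises were those of OR4C1P (1.23), OR51B2 (1.12) and OR52E8 (1.11), detected on 1 or no Lamin A/C Kd array. The largest fall in both knockdowns was that of OR4D11 (−1.69 and −1.72), which was at 0.62 in control replicate 1 and between −3.83 and −1.94 on the other arrays. OR4K14 and OR51B4 in Lamin A/C Kd, and OR5W2 and OR4K14 in Lamin B2 Kd, followed, each at or near background on the knockdown arrays.

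In 2 genes, a probe was detected on all arrays of a group and on none of another. OR5AU1, a Chr.14 receptor, was detected on all controls (−1.26, −1.89 and −1.85) and on no Lamin A/C Kd array (−2.08, −2.30 and −2.05). Its difference from control was −0.48 (limma, adjusted p = 0.464). Control replicates 2 and 3 lay below the lowest detected signal of Lamin A/C Kd replicates 1 and 2 (−1.81 and −1.72), so no least fold is given. OR52N4 was detected on all controls (−1.95, −1.68 and −1.91) and on no Lamin A/C Kd array (−2.16, −3.04 and −2.66), with no fold to give, since the controls lay at the detection limit. In Lamin B2 Kd, OR52N4 was at −4.14, −2.09 and −0.68, so that the arrays of this group lay on both sides of the controls.

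Compared with each other, the knockdowns differed in 6 receptor genes of 102 tested, with 1 higher in Lamin A/C Kd (against 3.29% of all genes) and 5 higher in Lamin B2 Kd (against 1.98%; 5.27% in either direction). The called probes of OR4C16, OR52N1 and OR51D1 were tested only through their detection in Lamin B2 Kd. That of OR5M8 was tested only through its detection in Lamin A/C Kd. The directions of these genes are thus not independent of the filter. Only OR4C16 kept the adjusted p (limma, adjusted p = 0.0387). Without Lamin B2 Kd replicate 3 it was again the 1 receptor gene called, but with an adjusted p of 0.0937 (limma; 0.000872 to 0.125 over the alternatives that tested it). Its probe GT_HS_44k_0434 was at −1.05, −1.10 and −0.76 in controls, −1.51, −2.15 and −1.85 in Lamin A/C Kd, and 0.67, −1.45 and 0.70 in Lamin B2 Kd. All Lamin A/C Kd arrays were below both other groups, and Lamin B2 Kd replicate 2 lay below the controls. Neither knockdown differed from control by the criterion for this gene (−0.87 and 0.95, the latter 0.58 without replicate 3).

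Other genes of the pathway and the surroundings were read from lists. Of 16 genes for receptor trafficking and odorant signalling on the array, 13 had a probe detected on all arrays, among them GNAL and ADCY3, the G protein subunit and cyclase of the olfactory cascade. None of the 14 tested was called in either knockdown. Of 16 regulators of receptor choice or of receptor heterochromatin, 11 had a probe detected on all arrays. Of the 11 tested in each knockdown, none was called in Lamin A/C Kd and 2 were lower in Lamin B2 Kd (against 1.55% of all genes). These were ATF5, a transcription factor of the sensory neuron (−1.08; limma, adjusted p = 0.0311; −0.83 without replicate 3), and EHMT1, a histone H3 lysine 9 methyltransferase (−1.09; adjusted p = 0.0524; −0.81 without replicate 3). The other ATF5 probes fell by 0.92 and 0.88, under the 2-fold limit, and the other EHMT1 probes had differences of −0.36, 0.06 and 0.16. Of the list, LBR, the Lamin B receptor, a protein of the inner nuclear membrane, was detected on all arrays and was not called.

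Among 22 protein-coding genes lying between these receptor genes on Chr.11, such as the beta-globin genes and several TRIM genes, 18 were on the array, 10 were tested and none was called in either knockdown.

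Among the 203 other olfactory receptor genes on the array, 4 of 132 tested were called in Lamin B2 Kd (3 higher and 1 lower, against 2.72% of all genes), and 2 of 130 in the other knockdown (both higher, against 2.94%). OR2A2, a receptor on Chr.7, was called in both and kept the adjusted p. It was at −0.77, −0.58 and −1.22 in controls, 0.47, 0.43 and 0.19 in Lamin A/C Kd, and 0.61, 0.02 and 0.18 in Lamin B2 Kd, with every knockdown array above every control. The differences were 1.22 (limma, adjusted p = 0.00867) and 1.13 (adjusted p = 0.0244; 1.17 without replicate 3). OR1J4, on Chr.9, had a difference of 1.03 in Lamin A/C Kd (limma, adjusted p = 0.0164).

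The cells expressed most of the listed epithelial markers. Of 11 colon epithelium markers on the array, 9 had a probe detected on all arrays, among them KRT8, KRT18, KRT19, CDH1 and CDX2. None of the 11 was called in Lamin A/C Kd, and 1 was called in Lamin B2 Kd, where it was lower. Of 13 olfactory sensory neuron markers on the array, 7 had a probe detected on all arrays, among them OMP, the olfactory marker protein, while EBF1, a transcription factor of these neurons, was detected on none. None of the 8 neuron markers tested was called in either knockdown. Of 5 fibroblast markers none had a probe detected on all arrays. Of 5 leukocyte markers 4 had one, while the PTPRC probes, of the gene for the common leukocyte antigen, were detected on 0 and 2 arrays. None of the 4 leukocyte markers tested was called.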

How the data were processed

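Total RNA of DLD1 cells was labelled with Cy3 and hybridized to Agilent single-color arrays, 3 arrays per group. The deposited scanner files hold an intensity per spot that Agilent Feature Extraction (version 10.5 per the submitters' processing notes) had corrected for background, and the flags for detection and outliers. A second source, the authors' deposited log2 values, shifted by a percentile and joined over the arrays, served only as an alternative: 20266 of its 50238 entries are blank, and 45 receptor probes could be used. The probes carry no mapped position in the files, and the reference table (GRCh38.p14) gave chromosomes, gene types and neighbours only.

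From the scanner files, control spots and spots marked as outliers were left out, spots of a probe were averaged, and log2 processed signals minus the 50th percentile of the array were tested with limma (3.58.1, R 4.3.3) in 1 fit of 3 groups. A probe was tested if well above background on all arrays of either group. Genes were called at 2-fold or more with an unadjusted p under 0.05, the criterion of the study's methods, which name no test for the arrays. Adjusted p values are Benjamini-Hochberg values over all probes tested. The p values measure the spread between cultures grown as replicates, and with 3 arrays in each group precision was limited by their number.

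Named genes were members called in a knockdown, the 15 with the highest signal among those detected on all arrays, those detected on all arrays of a group and none of another, the 3 largest rises and falls per knockdown without a filter, and OR51E1, OR51E2, OR51B4 and OR51B5. Other genes called are given with values or by count only, and those of some families are not listed. Other probes of a named gene, and single probes described for Lamin B2 Kd replicate 3, were named after their values were seen. 1 receptor probe of those named is not reported here. The members and lists were chosen with earlier results of these data known. Fits were tested on simulated data. Alternatives were another percentile, quantile normalization, normexp background correction (offset 50), the deposited table, other filters and thresholds, array weights, a slide term, a replicate block, a fit of only the groups compared, and leaving out each array. The slide term marks Lamin B2 Kd replicate 3 alone, so it gives the same differences as leaving out that array and is not a separate check.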

Additional observations from a re-analysis of the deposited data

Results flagged for a closer look

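Differences between the knockdowns were tested directly in 6 receptor genes that passed the 2-fold criterion with an unadjusted p under 0.05, given here as Lamin A/C Kd minus Lamin B2 Kd on the log2 scale. OR4C16 differed by −1.81 (limma, adjusted p = 0.0387), and by −1.45 without Lamin B2 Kd replicate 3 (adjusted p = 0.0937). The other 5 did not keep the adjusted p, and none of them passed the criterion without replicate 3. As given above, the directions of OR4C16, OR52N1, OR51D1 and OR5M8 are not independent of the filter on detection.

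OR52N1 probe GT_HS_44k_0164 differed by −1.69 (−1.55 without replicate 3). It was at 0.38, −2.01 and −2.25 in Lamin A/C Kd and 0.48, 0.04 and 0.66 in Lamin B2 Kd, and among controls replicate 2 was also low (−1.64). OR8S1 differed by −1.46 (−0.66 without replicate 3), OR8H2 by −1.27 (−0.84) and OR51D1 by −1.22 (−0.98). OR5M8, the 1 gene higher in Lamin A/C Kd, differed by 1.0 (0.41), and was at −1.20, −1.01 and −1.14 there and at −1.86, −1.20 and −3.30 in Lamin B2 Kd. The probe of OR8H2 shares 49 of 52 bases with a probe of OR8H3, so its signal cannot be taken as that of 1 gene alone.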

How the results depend on the processing

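In Lamin A/C Kd, the count of 0 receptor genes called was unchanged under all alternatives on the whole set of arrays, the replicate block included, except that 1 gene, OR4K14, was called with no filter on detection, and leaving out an array gave 0 to 1 (1 when control replicate 2 or 3, or the first Lamin A/C Kd array, was dropped). In Lamin B2 Kd, the 5 genes called became 0 with the adjusted p, normexp or array weights, 1 of 24 genes tested with the deposited table (4 of the 5 were not tested there), 2 of 76 with detection on all 9 arrays (3 of the 5 not tested), 2 with a slide term (1 higher and 1 lower), 3 with only the groups compared, and 19 with no filter (17 higher and 3 lower, 1 gene having probes both ways). Leaving out an array gave 2 to 17: 2 without Lamin B2 Kd replicate 3 or control replicate 2, 6 (3 higher and 3 lower) without control replicate 3, and 17 without Lamin B2 Kd replicate 1 (13 higher, 4 lower) or 2 (12 higher, 5 lower). Over all genes, the 602 called became 138 with normexp, 371 with array weights, 1438 with no filter, 439 without Lamin B2 Kd replicate 3, and 1320 and 1374 without replicates 1 and 2. Between the knockdowns, 6 became 1 with the adjusted p, normexp, the deposited table, detection on all arrays, array weights or a slide term (5 of the 6 were not tested in the deposited table, nor with detection on all arrays), 10 with no filter and 11 at 1.5-fold, and the split of 1 higher and 5 lower in Lamin A/C Kd became 0 and 6 with the 75th percentile. Leaving out an array gave 1 to 17 (1, 17 and 13 without Lamin B2 Kd replicates 3, 2 and 1, and 3 without Lamin A/C Kd replicate 2 or 3). The cause of these shifts was not tested. The replicate block gave 6 genes in Lamin B2 Kd and 5 between the knockdowns. Same-numbered arrays had correlations of deviations between −0.09 and 0.15, so the numbers were not taken to pair the samples.

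The median difference of the receptor probes in Lamin A/C Kd, 0.14, was 0.21 with the 75th percentile, 0.0601 with quantile normalization, 0.0732 with normexp, 0.09 in the deposited table and 0.22 over probes detected on no array. That percentile moved the median over all probes from 0.01 to 0.09 in Lamin A/C Kd, and from −0.04 to 0.15 in Lamin B2 Kd. In Lamin B2 Kd the median of the receptor probes was 0.24. It was 0.44 with that percentile, 0.0931 with quantile normalization, 0.0937 with normexp and 0.0546 over probes detected on no array, and it lay between 0.07 and 0.38 when an array was left out. The median number of receptor probes detected on an array, 142 of 320, was 247 by the scanner's looser flag of a positive and significant signal. The count of probes with all Lamin B2 Kd arrays below all controls went from 1 to 18 without replicate 3. Most receptor probes lie near background, where these arrays do not resolve small changes.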
